A study of Saccharomyces cerevisiae with 12 samples.

Results

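The temperature response of a laboratory strain and a wine strain of the budding yeast Saccharomyces cerevisiae was compared gene by gene. The measure was the interaction of strain and temperature: the change in EC1118 from 30 °C to 15 °C minus the same change in CEN.PK113-7D, on the log2 scale of array intensity. A positive interaction means that the level at 15 °C, relative to 30 °C, was higher in EC1118 than in CEN.PK113-7D. All 12 of the 12 arrays entered the fit, 3 in each of 4 groups, and 5449 genes were tested. CEN.PK113-7D is a laboratory strain, haploid and of mating type a. EC1118 is an industrial wine strain known as a diploid, and no modified allele is named in the labels for either. Each strain was grown at 15 °C and at 30 °C in anaerobic, nitrogen-limited chemostats at steady state, at a dilution rate of 0.05 per h, in minimal medium supplemented with anaerobic factors. The design text calls the cultures biological triplicates, with 1 Affymetrix Yeast Genome 2.0 array for each. Each strain stands for itself alone, since 1 strain of each kind was used.

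In a chemostat the dilution rate sets the growth rate, so a cold culture and a warm culture can be held at the same rate of growth and differ in temperature. Yeast at a suboptimal temperature is known to adjust ribosome assembly, membrane lipids, protein folding and the uptake of nutrients, whose transport slows in the cold. An interaction asks whether that adjustment differs between genetic backgrounds: a gene may move in opposite directions in the strains, move in 1 of them, or move in both by unequal amounts. Differences in gene sequence and copy number between the strains were not examined.

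Median array intensity lay between 329 and 353 at 15 °C and between 356 and 371 at 30 °C, and 1.90% to 3.31% of probe sets per array sat at the lowest deposited value of 10. Replicate arrays correlated with r from 0.975 to 0.994 across genes, in log2 intensity. The a-specific and haploid-specific genes fitted the strain names. STE2, the alpha-factor receptor of a cells, read from 2810.2 to 4421 in CEN.PK113-7D and from 67.5 to 92.9 in EC1118, and GPA1, the haploid-specific G protein subunit of the pheromone pathway, read from 524 to 875 and from 31.4 to 54.1. Alpha-specific genes, known to be low in a cells and in diploids, did not all fit. STE3, the a-factor receptor of alpha cells, read from 70.8 to 129 in CEN.PK113-7D and from 16.5 to 59.5 in EC1118. SAG1, the alpha-agglutinin, read from 302 to 1380 and from 172 to 267 in the same order. MF(ALPHA)2 was low in EC1118, from 13.7 to 28.9, and in CEN.PK113-7D at 30 °C, from 14.4 to 20.2. The array of CEN.PK113-7D at 15 °C, replicate 3, stood apart: the alpha-cell genes MF(ALPHA)1, MF(ALPHA)2 and SAG1 read 2364, 967 and 1380.0 there. On the other 2 arrays of that group they read 505 and 776 for MF(ALPHA)1, 159 and 255 for MF(ALPHA)2, and 302 and 459.6 for SAG1. The other 10 mating-type and haploid genes examined, a-specific ones included, were also highest there within the group, by 1.06 to 2.08 times the geometric mean of the other 2 arrays, beside 3.70 to 4.80 times for these 3. Over all genes that array lay farthest from its group mean, with a root mean square deviation of 0.23 in log2 intensity, followed by EC1118 at 30 °C, replicate 2, and EC1118 at 15 °C, replicate 3, with 0.20 each. Array weights estimated from the data were 0.32, 0.61 and 0.43 for these 3 arrays. Without the first 2, called both arrays that stood apart below, the interaction count was 743, and without the last alone it was 633. With 3 arrays per group the p-values measure the spread among these cultures, and the number of arrays limits the precision.

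Strain and temperature interacted in 711 of 5449 genes, which is 13% of those tested, at an adjusted p under 0.05. Adjusted p-values come from limma's two-sided test and were adjusted by the Benjamini-Hochberg method over the 5449 genes, and ± is the limma standard error. The interaction was positive in 473 genes (8.68% of those tested) and negative in 238 (4.37%). It reached 2-fold, which is 1 on the log2 scale, in 148 genes (2.72%), with 108 positive and 40 negative. Across all genes the median interaction was 0.04, and the 5th and 95th percentiles were -0.54 and 0.74. Temperature alone passed the test in 3186 genes of CEN.PK113-7D (58.5%), with 1189 higher at 15 °C (21.8%) and 1997 lower (36.6%). In EC1118 it passed in 2953 (54.2%), with 1320 higher (24.2%) and 1633 lower (30%). Both effects passed in 2209 genes, of which 2113, or 95.7%, moved the same way. The effects correlated with r = 0.71 across genes, which are not independent. The plot of both temperature effects shows most genes along the diagonal of equal response, with the 4 kinds of unequal response around it.

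Of the 711 genes, 96 (13.5%) moved in opposite directions, with both temperature effects past the test. In 77 of them the level at 15 °C was lower in CEN.PK113-7D and higher in EC1118, and in 19 it was the reverse. Another 234 genes (32.9%) passed for temperature in CEN.PK113-7D and not in EC1118, with 59 higher and 175 lower at 15 °C. Another 181 (25.5%) passed in EC1118 and not in CEN.PK113-7D, with 123 higher and 58 lower. The remaining 200 (28.1%) moved the same way by unequal amounts, 130 of them more in CEN.PK113-7D and 70 more in EC1118. A missed threshold does not show a lack of response, so a stricter count was added. It asked for a change of at least 2-fold in 1 strain and a 95% interval within ±0.5 in the other. It held 19 genes for CEN.PK113-7D, 4 higher and 15 lower at 15 °C, and 10 for EC1118, 8 higher and 2 lower.

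The deposited scale moved with temperature, and this bears on the split of directions. The median temperature effect over all genes was -0.11 in CEN.PK113-7D and -0.04 in EC1118, and each array's centring on its median moved them to 0.01 and 0.05. The share of positive interactions was 66.5% as deposited, 59.1% after centring and 52.0% after quantile normalization. The 711 and 727 genes called by quantile normalization and by centring shared 574 and 644 with the 711 called as deposited. Of the 96 opposite genes, 48 were opposite under both scalings.

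**Figure D1:**
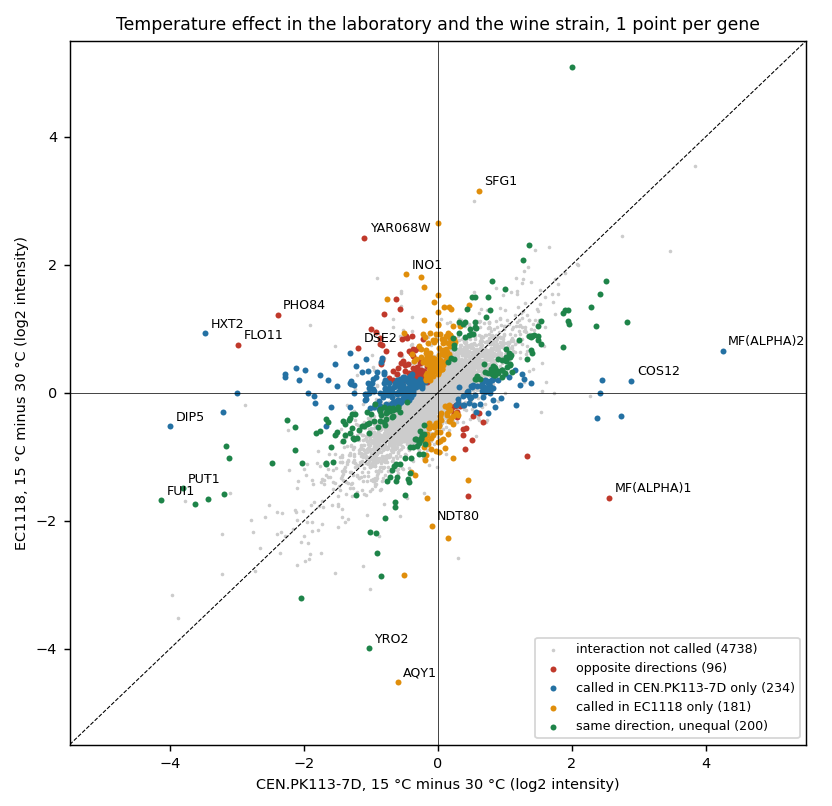
Temperature effect (15 °C minus 30 °C, log2 intensity) in CEN.PK113-7D on the horizontal axis and in EC1118 on the vertical axis, 1 point per gene, coloured by the kind of interaction; the dashed line marks equal effects. The 96 opposite genes lie at the upper left (77) and at the lower right (19).

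The called genes more often marked a strain difference at 30 °C than at 15 °C. Among the 711 genes the strains differed at 30 °C alone in 318 (44.7%), at 15 °C alone in 181 (25.5%), at both in 206 and at neither in 6. The absolute strain difference was larger at 30 °C in 455 genes, or 64%, beside 56% over all genes tested. The background share of strain differences past the test was 33.1% at 15 °C and 41.4% at 30 °C. These background shares include genes that differed at both temperatures, so they cannot be set beside the shares for a single temperature alone. Counted in the same way, the 206 genes enter at both temperatures, and the called genes then lay above the background at each.

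Among the genes that moved in opposite directions, a cell-surface gene and a phosphate transporter had the largest positive interactions of those named. FLO11, the flocculin of surface adhesion and invasive growth, read 492, 528 and 548 at 15 °C and 4381, 4145 and 3868 at 30 °C in CEN.PK113-7D. In EC1118 it read 4422, 4383 and 4404 at 15 °C and 2863, 2361 and 2648 at 30 °C. The cold laboratory cultures thus stood alone at a low level, and no temperature groups overlapped within a strain. The level fell 7.90-fold in the laboratory strain and rose 1.68-fold in the wine strain, an interaction of 3.73 ± 0.11 (adjusted p = 4.75e-08). PHO84, the high-affinity phosphate transporter, read 38.9, 43.6 and 31.1 at 15 °C and 147, 176 and 297 at 30 °C in CEN.PK113-7D. EC1118 gave 279, 260.2 and 266 at 15 °C and 100.1, 134 and 115 at 30 °C. The strains changed places: EC1118 was higher by 2.84 at 15 °C and lower than CEN.PK113-7D at 30 °C, by a log2 difference of -0.77 (adjusted p = 0.0208). The interaction of PHO84 was 3.61 ± 0.32 (adjusted p = 3.19e-04), and 2.45 with a pseudocount of 50, which shrinks changes of dim genes.

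ESF1, a nucleolar protein of pre-rRNA processing, fell in the cold in the laboratory strain and rose in the wine strain. It read 315, 260.2 and 283 at 15 °C against 503, 482 and 579.6 at 30 °C in CEN.PK113-7D, and 307, 255 and 383 against 194, 186 and 143 in EC1118; pairs joined by "against" keep this order of temperatures. The temperature groups did not overlap in either strain, and the interaction was 1.71 ± 0.23 (adjusted p = 0.00167). At 30 °C EC1118 was lower by a log2 difference of -1.59, while at 15 °C the difference was 0.12 and missed the test (adjusted p = 0.591). BAG7, a GTPase-activating protein for Rho1, read 50.1, 54.9 and 42.6 against 80.7, 106 and 108 in CEN.PK113-7D and 30.2, 35.0 and 17.3 against 12.7, 14.9 and 12.3 in EC1118. The wine strain was lower throughout and close to the lowest value of 10 at 30 °C. The interaction of BAG7 was 1.99 ± 0.33 (adjusted p = 0.00443), and 0.86 with the pseudocount.

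YAR068W, of unknown function, had the largest rise among these genes in the wine strain. It read 956, 885 and 912 at 15 °C and 295, 96.1 and 177 at 30 °C in EC1118, against 47.2, 76.8 and 61.3 at 15 °C and 151, 107 and 135 at 30 °C in CEN.PK113-7D. Its interaction was 3.52 ± 0.47 (adjusted p = 0.00172), and 2.80 with the pseudocount. Its effect in CEN.PK113-7D missed the test when replicate 1 of either of its groups was left out. YOR385W, also of unknown function, had an interaction of 1.58 ± 0.32 (adjusted p = 0.0105). Its rise in EC1118, from 125, 127 and 131 to 219, 234 and 191, missed the test without replicate 2 of EC1118 at 15 °C and without both arrays that stood apart. YDR261C-D, a Ty element Gag protein on a probe set shared by near-identical copies, had an interaction of 1.87 ± 0.35 (adjusted p = 0.00790). Its levels in EC1118, 189, 130.3 and 139 at 15 °C and 110.3, 63.2 and 68.9 at 30 °C, were far below the 1137, 890.4 and 1585 at 15 °C and 2179, 2429 and 2074 at 30 °C of CEN.PK113-7D, and the copies behind the signal cannot be told apart. BAR1, the protease that degrades alpha-factor, had an interaction of 1.63 ± 0.29 (adjusted p = 0.00657) on a level near the floor in EC1118, 25.8, 23.8 and 29.1 at 15 °C and 14.7, 13.9 and 18.2 at 30 °C. With a pseudocount of 50 its rise in EC1118 missed the test.

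Of the 19 genes that were higher in the cold in CEN.PK113-7D and lower in EC1118, the 8 named by the rule included 2 pheromone-pathway genes and 3 transport-linked genes. MCH4, related to monocarboxylate permeases, read 512, 499.6 and 521 at 15 °C and 307, 295 and 366 at 30 °C in CEN.PK113-7D. The EC1118 arrays read 463, 393 and 458 at 15 °C and 684, 560.5 and 566 at 30 °C. The groups did not overlap within either strain, and the interaction was -1.13 ± 0.15 (adjusted p = 0.00167). DIN7, a mitochondrial nuclease induced by DNA damage, read 240.1, 252 and 230.2 against 194, 180.4 and 172 in CEN.PK113-7D and 80.5, 79.5 and 98.0 against 148, 176 and 152 in EC1118. Again no groups overlapped within a strain, and the interaction was -1.29 ± 0.14 (adjusted p = 6.23e-04). VBA2, a permease of basic amino acids at the vacuole, had an interaction of -0.94 ± 0.14 (adjusted p = 0.00292).

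COA6, an assembly factor of cytochrome c oxidase, had an interaction of -1.03 ± 0.17, MCH2, a further monocarboxylate permease relative, of -1.25 ± 0.22, and CLB1, a mitotic cyclin, of -0.98 ± 0.19, with adjusted p of 0.00464, 0.00542 and 0.00936. For each of these 3 the rise in CEN.PK113-7D was small, 0.37 ± 0.12, 0.52 ± 0.15 and 0.42 ± 0.14, and missed the test in 2 or 3 of the 22 alternatives. With the pseudocount the interaction of MCH2 was -0.65. STE3, the a-factor receptor of alpha cells, read 22.2, 16.5 and 17.3 at 15 °C and 59.5, 56.3 and 55.1 at 30 °C in EC1118, a fall of 3.08-fold. In CEN.PK113-7D it read 85.1, 106 and 129 at 15 °C and 87.7, 72.8 and 70.8 at 30 °C, a rise that missed the test in 5 alternatives. The interaction of STE3 was -2.08 ± 0.22 (adjusted p = 6.23e-04), and -0.93 with the pseudocount.

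MF(ALPHA)1, the alpha-factor precursor, had the lowest interaction of the named opposite genes, -4.20 ± 0.79 (adjusted p = 0.00799). It read 505, 776 and 2364 at 15 °C against 144, 136 and 233 at 30 °C in CEN.PK113-7D, and 72.6, 92.0 and 246 against 338, 377 and 394 in EC1118. No groups overlapped within a strain, but the highest value belonged to the array that stood apart. Without CEN.PK113-7D at 15 °C, replicate 3, the interaction was -3.56. Without EC1118 at 15 °C, replicate 3, which read 246 beside 72.6 and 92.0, the interaction was -4.73. In 5 alternatives the fall in EC1118 missed the test. In whole cultures, more cells of one kind and more transcript per cell cannot be told apart.

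**Figure D2:**
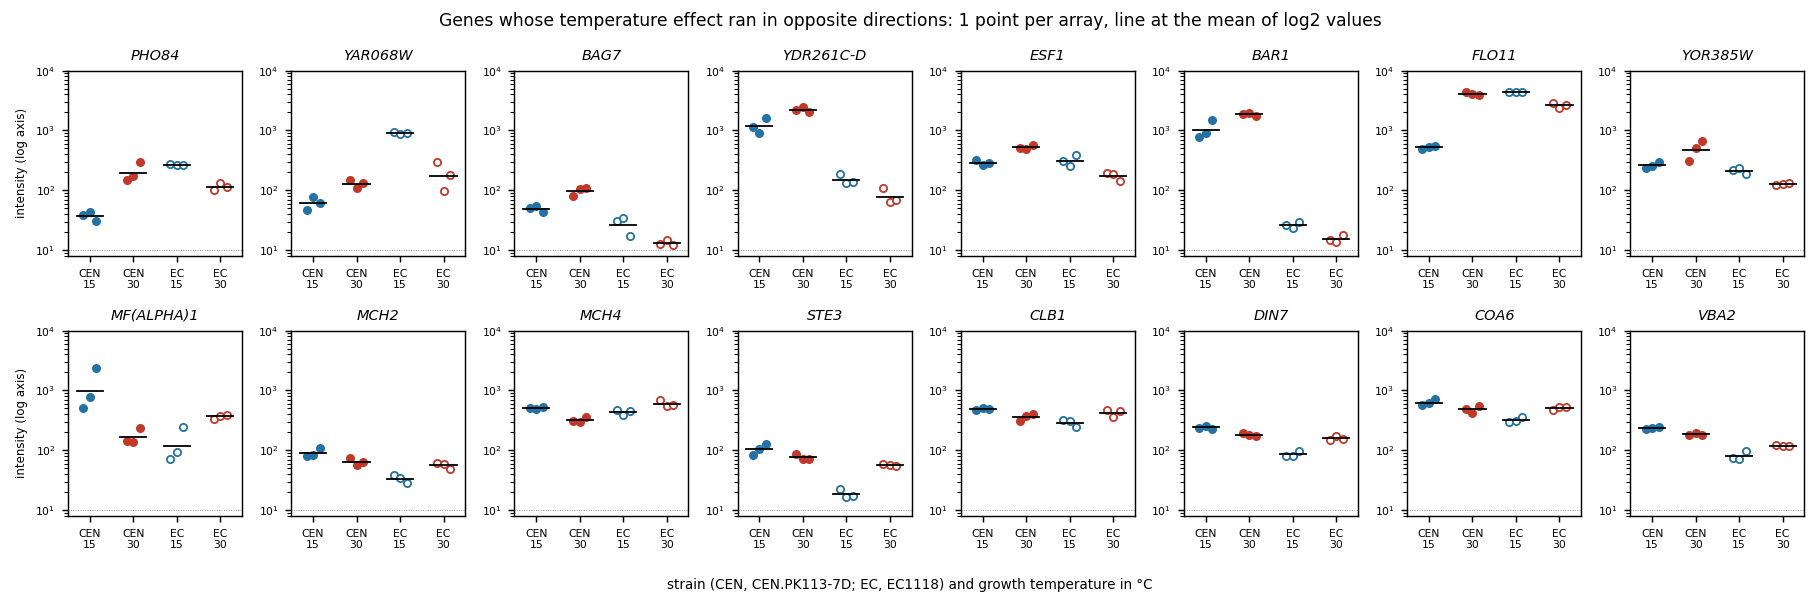
Intensity (log axis) of the 16 named genes with opposite temperature effects on each of the 12 arrays; filled points are CEN.PK113-7D, open points EC1118, blue 15 °C, red 30 °C, and each line is the mean of log2 values. In the upper row CEN.PK113-7D is lower and EC1118 higher at 15 °C, in the lower row the reverse; MF(ALPHA)1 shows the single array of CEN.PK113-7D at 2364.

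Among the 175 genes that fell in the cold in CEN.PK113-7D and did not pass in EC1118, 5 were named. They had the largest interactions of those without an array at the floor, and 4 of them encode transporters. The share of transporters among the 175 was not counted. DIP5, the permease of glutamate and aspartate, read 157, 98.7 and 153 at 15 °C and 2819, 1968 and 1757 at 30 °C in CEN.PK113-7D, a 16.0-fold fall. On the wine strain arrays it read 2613, 2272 and 2534 at 15 °C and 4236, 3276 and 3237 at 30 °C. The laboratory cultures at 15 °C lay far below all the others, and the interaction was 3.47 ± 0.30 (adjusted p = 2.91e-04). The wine strain's groups did not overlap either, but its effect of -0.53 ± 0.21 missed the test (adjusted p = 0.0569) and passed it in 7 of 22 alternatives. HXT2, a glucose transporter induced at low glucose, read 112, 153 and 73.1 against 1371, 1001 and 1258 in CEN.PK113-7D. In EC1118 it read 405, 482 and 303 against 412, 95.8 and 215, and these groups overlapped. The interaction of HXT2 was 4.41 ± 0.64 (adjusted p = 0.00268), and 3.58 without both arrays that stood apart. Without replicate 1 of EC1118 at 30 °C, which read 412, the rise in EC1118 passed the test.

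PHO89, the sodium-coupled phosphate transporter, read 90.1, 117 and 97.6 at 15 °C and 347, 409 and 845 at 30 °C in CEN.PK113-7D. It stayed between 20.4 and 30.4 on all 6 EC1118 arrays, so the interaction of 2.58 ± 0.38 (adjusted p = 0.00281) rested on a strain with a low signal. With the pseudocount it was 1.95. ENA5, a sodium pump on a probe set shared with near-identical copies, read 43.8, 53.2 and 32.1 against 289, 298 and 453 in CEN.PK113-7D and 163, 164 and 162 against 154, 184 and 155 in EC1118. Its effect in EC1118 was -0.01 ± 0.20, and it met the strict rule for a response in 1 strain. The interaction was 3.0 ± 0.28 (adjusted p = 3.19e-04), and 1.36 when its probe sets were averaged, so the probe sets disagreed in size. RTA1, a membrane protein linked to aminocholesterol resistance, had an interaction of 2.53 ± 0.51 (adjusted p = 0.0110) and 1.70 with the pseudocount.

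Of the 59 genes that rose in the cold in CEN.PK113-7D alone, COS12 had the smallest error relative to its change of the 5 named. COS12, a subtelomeric gene of the COS family of membrane proteins, read 100.4, 101 and 107 at 15 °C and 15.4, 12.3 and 14.0 at 30 °C in CEN.PK113-7D. EC1118 gave 111, 107 and 114 at 15 °C and 96.3, 96.3 and 99.1 at 30 °C. The warm laboratory cultures alone were low, by 7.41-fold, and the interaction was -2.70 ± 0.11 (adjusted p = 5.35e-07). The small effect in EC1118, 0.19 ± 0.08, passed the test in 4 alternatives. EFM4, a methyltransferase of translation elongation factor 1A, read 349, 428 and 275 against 146, 120.4 and 129 in CEN.PK113-7D and 278, 293 and 288 against 265, 236 and 270.2 in EC1118. Its interaction was -1.24 ± 0.20 (adjusted p = 0.00391), and the strains had similar levels at 15 °C, where their difference missed the test (adjusted p = 0.166).

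YLR036C, of unknown function, had an interaction of -1.09 ± 0.17 (adjusted p = 0.00342) and met the strict rule together with COS12 and EFM4. YFL067W, also of unknown function, had an interaction of -1.36 ± 0.31 (adjusted p = 0.0200) that missed the test in 3 alternatives. With the pseudocount the interactions of COS12, YLR036C and YFL067W were -1.13, -0.43 and -0.59. MF(ALPHA)2, the second alpha-factor gene, read 159, 255 and 967 at 15 °C and 20.2, 14.4 and 19.4 at 30 °C in CEN.PK113-7D. It stayed between 13.7 and 28.9 in EC1118. The interaction was -3.60 ± 0.72 (adjusted p = 0.0102), -2.84 without the array that stood apart and -2.37 with the pseudocount.

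In EC1118, 123 genes rose in the cold without a passing change in CEN.PK113-7D, and the 5 named were low in the warm wine cultures. SFG1, a putative transcription factor required for superficial pseudohyphal growth, read 1196, 1019 and 994 at 15 °C and 153, 90.5 and 123 at 30 °C in EC1118, an 8.92-fold rise. In CEN.PK113-7D it read 944, 722 and 1004 at 15 °C and 731, 657 and 401 at 30 °C. The warm wine cultures alone were low, and the interaction was 2.55 ± 0.35 (adjusted p = 0.00181). The change in CEN.PK113-7D, 0.61 ± 0.24, missed the test (adjusted p = 0.0528) and passed it in 10 alternatives. INO1, the enzyme that makes inositol phosphate for phospholipid synthesis, read 2098, 2034 and 1864 against 732, 319 and 729.6 in EC1118 and 1701, 1764 and 2114 against 2348, 2693 and 2692 in CEN.PK113-7D. Its interaction was 2.32 ± 0.38 (adjusted p = 0.00409), and the lower level in CEN.PK113-7D passed the test without replicate 2 of EC1118 at 30 °C, without both arrays that stood apart and with array weights. OPI1, the repressor of INO1, had an interaction of 0.01 ± 0.13 (adjusted p = 0.972).

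NRT1, the nicotinamide riboside transporter, read 414, 315 and 273 at 15 °C and 81.6, 130.2 and 107 at 30 °C in EC1118, and 155, 182 and 184 at 15 °C and 188, 169 and 254 at 30 °C in CEN.PK113-7D. The wine strain was above the laboratory strain at 15 °C and below it at 30 °C, and the interaction was 1.87 ± 0.29 (adjusted p = 0.00380). MFA2, an a-factor precursor, had an interaction of 2.06 ± 0.22 (adjusted p = 6.32e-04). It read 182, 213 and 305 at 15 °C and 62.5, 68.8 and 65.0 at 30 °C in EC1118, against 4949 to 6520.2 over the 6 arrays of CEN.PK113-7D, so the response belonged to a strain with little of the transcript. CAR1, the arginase of arginine breakdown, read 651, 745 and 420.5 against 211, 196 and 233 in EC1118 and 293, 403 and 215 against 290.4, 511 and 831 in CEN.PK113-7D, where the groups overlapped. Its interaction was 2.23 ± 0.51 (adjusted p = 0.0186), and 1.94 with no call without both arrays that stood apart.

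Of the 58 genes that fell in the cold in EC1118 alone, AQY1 and 2 meiotic genes had the largest interactions of the 5 named. AQY1, a spore-linked aquaporin that is also known for freeze tolerance, read 35.4, 90.0 and 36.1 at 15 °C and 489, 2261 and 1264 at 30 °C in EC1118. In CEN.PK113-7D it read 18.1, 31.3 and 36.4 at 15 °C and 24.5, 40.4 and 72.9 at 30 °C. EC1118 cultures at 30 °C lay above all others and differed among themselves. The fall was 23.0-fold, with an interaction of -3.92 ± 0.85 (adjusted p = 0.0145). It was -4.52 without replicate 1 of EC1118 at 30 °C, -3.21 without both arrays that stood apart and -3.28 with the pseudocount.

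NDT80, the transcription factor of mid-meiosis, read 19.2, 22.2 and 19.6 at 15 °C and 88.0, 88.2 and 81.0 at 30 °C in EC1118, and 94.8, 118 and 150.2 at 15 °C and 119, 129.7 and 132 at 30 °C in CEN.PK113-7D. The cold wine cultures alone were low, and the gene met the strict rule with an interaction of -1.99 ± 0.20 (adjusted p = 4.28e-04). PES4, an RNA-binding protein of meiosis, read 11.8, 14.0 and 13.1 against 61.3, 66.9 and 60.0 in EC1118 and 75.2, 73.1 and 174 against 75.5, 97.1 and 96.7 in CEN.PK113-7D, an interaction of -2.42 ± 0.39 (adjusted p = 0.00409). BAP2, a permease of branched-chain amino acids, had an interaction of -1.82 ± 0.33 (adjusted p = 0.00667) and passed as opposite in 4 alternatives, both scalings among them. PEX18, a peroxin of peroxisomal protein import, had an interaction of -1.49 ± 0.33 (adjusted p = 0.0164). With the pseudocount the interactions were -0.89 for NDT80, -0.96 for PES4, -0.93 for BAP2 and -0.79 for PEX18.

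**Figure D3:**
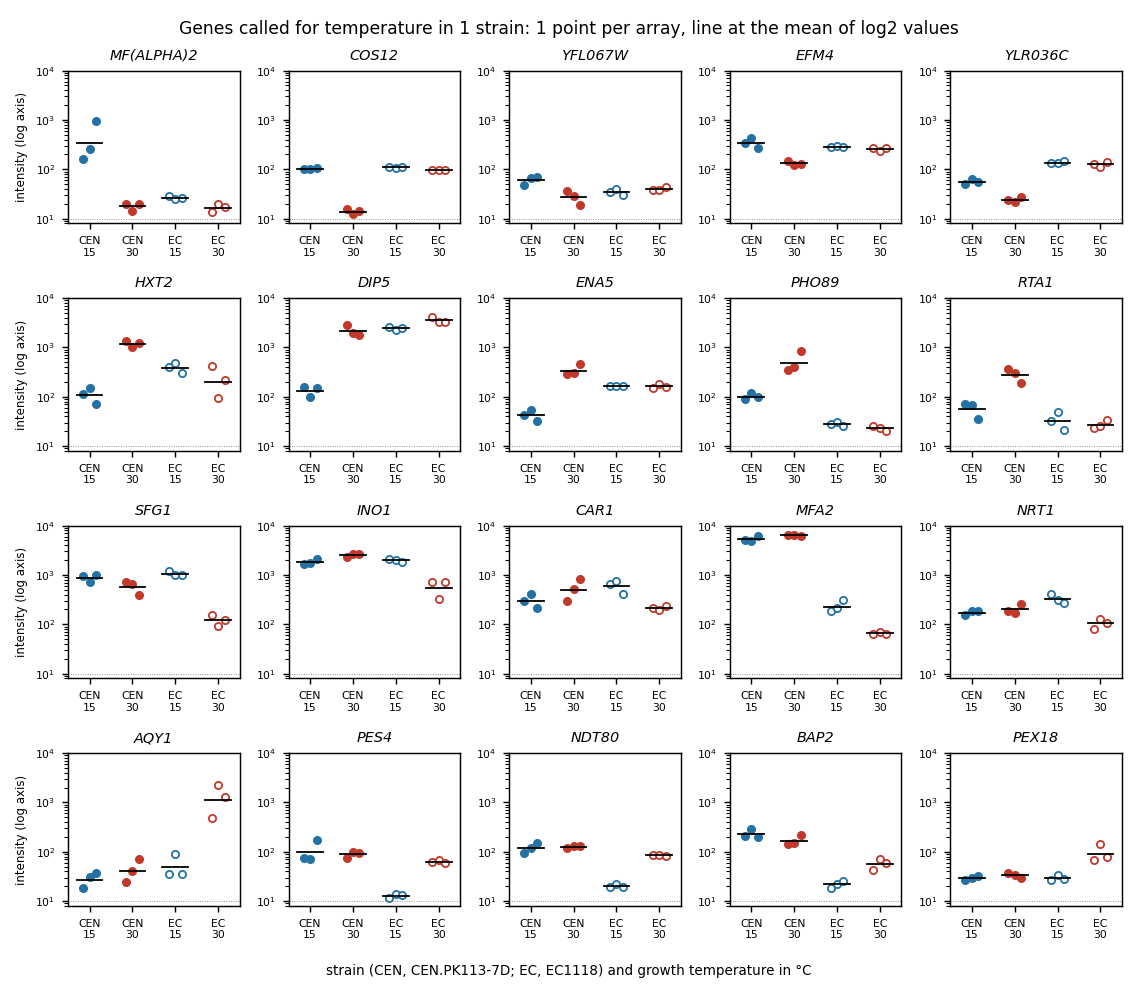
Intensity (log axis) of 20 named genes whose temperature effect passed in 1 strain, on each of the 12 arrays; filled points are CEN.PK113-7D, open points EC1118, blue 15 °C, red 30 °C, and each line is the mean of log2 values. Rows from top to bottom hold genes that rose in CEN.PK113-7D, fell in CEN.PK113-7D, rose in EC1118 and fell in EC1118; DIP5 is low in the laboratory strain at 15 °C alone and NDT80 in the wine strain at 15 °C alone.

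Of the 200 genes that moved the same way, the 3 named with a larger change in CEN.PK113-7D were FUI1, PTR2 and PUT1. FUI1, the uridine permease, read 21.6, 25.4 and 21.2 at 15 °C and 428, 382 and 390.2 at 30 °C in CEN.PK113-7D, a 17.6-fold fall. The EC1118 arrays read 248, 257 and 344 at 15 °C and 883, 866 and 942 at 30 °C, a 3.20-fold fall. The groups were apart in both strains, and the interaction was 2.46 ± 0.17 (adjusted p = 7.97e-05), or 1.11 with the pseudocount. PTR2, the di- and tripeptide transporter, and PUT1, the proline oxidase, had interactions of 2.34 ± 0.41 and 2.32 ± 0.44 (adjusted p = 0.00568 and 0.00822). The fall of PTR2 in EC1118 missed the test in 5 alternatives. In the other direction, YRO2, a membrane protein of the heat-shock protein 30 family, read 68.5, 110.1 and 64.7 at 15 °C and 856, 1989 and 1162 at 30 °C in EC1118. In CEN.PK113-7D it read 459, 525 and 812 at 15 °C and 1110.3, 1241 and 1224 at 30 °C. The cold wine cultures were the lowest of all, and the interaction was -2.96 ± 0.45 (adjusted p = 0.00302), or -2.36 with the pseudocount. CHA1, the deaminase of serine and threonine, and JHD2, a histone demethylase, had interactions of -1.59 ± 0.32 and -1.27 ± 0.19 (adjusted p = 0.0113 and 0.00268).

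Of the 711 genes, 35 had at least 1 array at the lowest value, and these are given by level. HOP1, a protein of the meiotic chromosome axis, read 79.4, 86.9 and 70.5 in CEN.PK113-7D at 15 °C and no more than 15.7 on any other array. AZR1, a plasma membrane transporter linked to azole resistance, was at 10 on all 6 arrays at 30 °C. It read 23.1, 29.1 and 95.4 in CEN.PK113-7D and 187, 302 and 707 in EC1118 at 15 °C, and its call was lost in 3 alternatives. YNL277W-A, of unknown function, read 10, 15.5 and 10 at 15 °C and 81.1, 97.4 and 157 at 30 °C in CEN.PK113-7D, and 19.6, 21.5 and 18.8 at 15 °C and 17.5, 33.1 and 26.1 at 30 °C in EC1118. Probe sets shared by near-identical genes stood for 16 of the 711 genes (2.25%), beside 2.17% of all genes tested.

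Of the 50 gene lists examined, 29 had a share of members called above the 13% of all genes. The 18 described were mostly chosen for a high share called or a large median, and 12 of the 32 others also lay above 13%. The plot of list medians shows that, of those 18, the median effect was lower in CEN.PK113-7D than in EC1118 for 15 and higher for 3. The members of a list are described by counts and medians, with no test of the list.

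**Figure D4:**
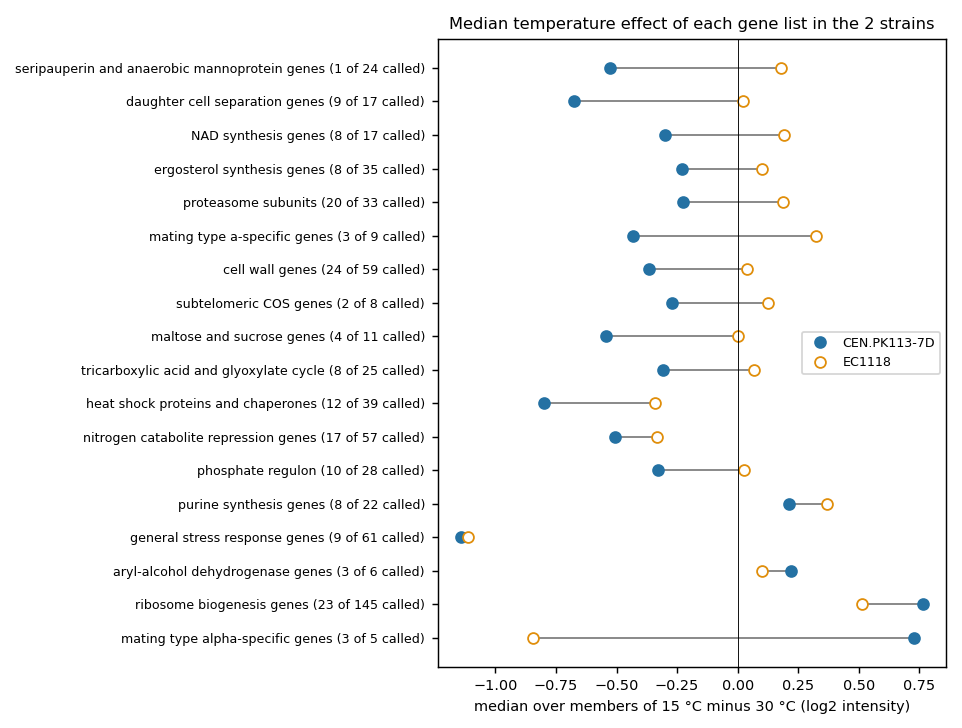
Median over the members of each gene list of the temperature effect (15 °C minus 30 °C, log2 intensity) in CEN.PK113-7D (filled) and EC1118 (open), with the number of members called for the interaction beside each name. The median over all genes was -0.11 and -0.04; proteasome subunits lie at -0.23 and 0.19, and ribosome biogenesis genes at 0.77 and 0.51.

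The subunits of the proteasome, the protease that degrades ubiquitin-tagged proteins, had a positive interaction value in all 33 of 33 members. The test called 20 of 33 (60.6%), all positive, with values from 0.31 to 0.51, so these were small and alike in size. The median was 0.40, beside 0.04 over all genes. In CEN.PK113-7D 19 members fell and 0 rose, and in EC1118 16 rose and 0 fell; after quantile normalization 5 fell and 4 rose in CEN.PK113-7D, and 22 rose in EC1118. Of the 20 called members, 6 moved in opposite directions as deposited, 0 after quantile normalization and 1 after centring, while 9 and 17 were called for the interaction there. PRE10, a subunit of the 20S core, read 1683, 1716 and 1705 at 15 °C and 1804, 1821 and 1902 at 30 °C in CEN.PK113-7D. On the wine strain arrays it read 1572, 1657 and 1675 at 15 °C and 1239.5, 1223 and 1273 at 30 °C. Wine cultures at 30 °C alone were low, and the interaction was 0.51 ± 0.07 (adjusted p = 0.00203). PRE9, SCL1 and PRE8, further core subunits, had interactions of 0.49 ± 0.07, 0.48 ± 0.07 and 0.46 ± 0.07 (adjusted p = 0.00273, 0.00355 and 0.00427). The strain difference was larger at 30 °C in all 20 called members, with a median over the 33 of -0.56 at 30 °C and -0.18 at 15 °C. RPN4, the transcription factor of proteasome genes, fell in the cold in both strains, by 3.19-fold and 2.43-fold, with an interaction of 0.39 ± 0.16 that missed the test (adjusted p = 0.145).

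Genes that separate daughter from mother cells fell in the cold in CEN.PK113-7D and went both ways in EC1118. Of 17 measured members 9 were called (52.9%), all positive, from 0.75 to 1.89: DSE1, DSE2, DSE3, DSE4, EGT2, CTS1, SCW11, AMN1 and SUN4. In CEN.PK113-7D 14 of 17 fell and 1 rose, and in EC1118 4 fell and 6 rose. After quantile normalization 13 fell in CEN.PK113-7D, and 3 fell and 7 rose in EC1118. The median interaction was 0.75. DSE2, a daughter-specific wall protein with similarity to glucanases, read 938, 859 and 889 at 15 °C and 2213, 2265 and 1696 at 30 °C in CEN.PK113-7D. In EC1118 it read 484, 403 and 394 at 15 °C and 314, 207 and 272 at 30 °C. The groups were apart in both strains and moved in opposite directions, with an interaction of 1.89 ± 0.22 (adjusted p = 9.88e-04).

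DSE1, a daughter-specific protein of cell separation, read 145, 142 and 152 against 684, 692 and 716 in CEN.PK113-7D and 90.5, 98.2 and 92.9 against 155, 102 and 129 in EC1118. It fell in both strains, 4.77-fold and 1.35-fold, with an interaction of 1.82 ± 0.17 (adjusted p = 3.58e-04). DSE3 fell 2.04-fold in CEN.PK113-7D, with an effect of 0.07 ± 0.08 in EC1118 and an interaction of 1.10 ± 0.11 (adjusted p = 4.28e-04). SUN4, a wall protein of septation, had an interaction of 0.87 ± 0.10 (adjusted p = 0.00103), and its rise in EC1118 missed the test in 16 of 22 alternatives. All 9 called members differed more between the strains at 30 °C, where the list's median strain difference was -0.94, beside -0.40 at 15 °C.

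**Figure D5:**
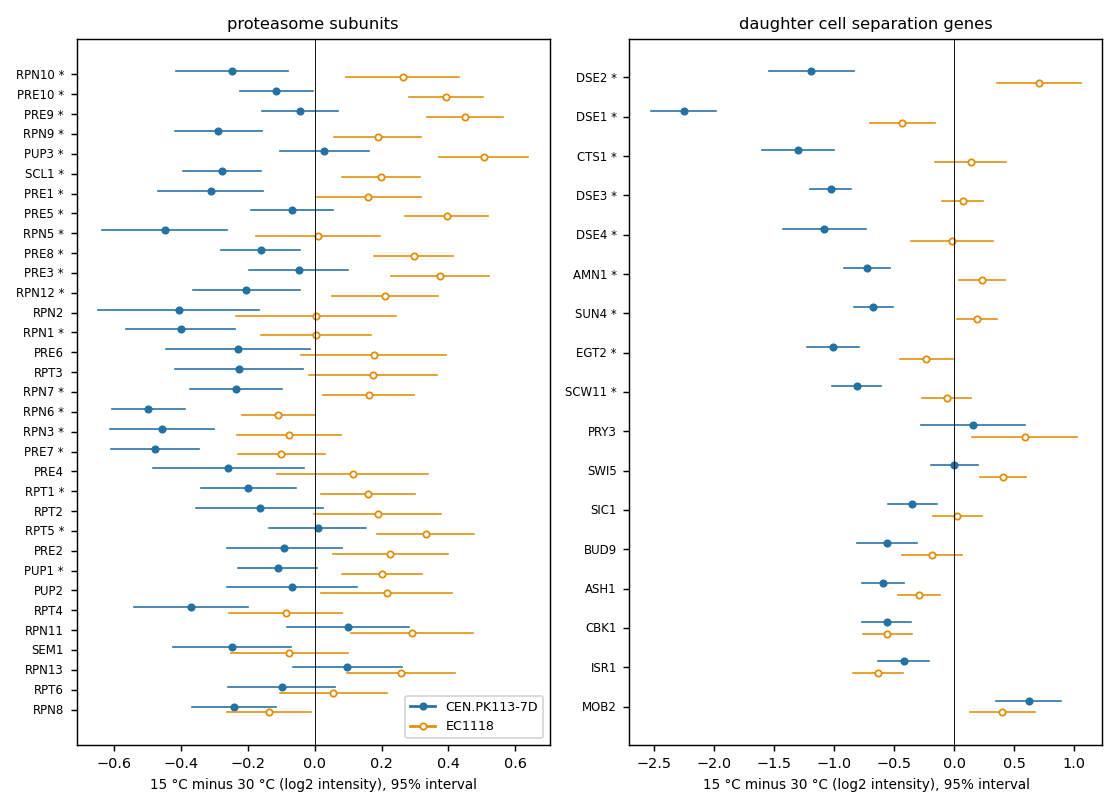
Temperature effect (15 °C minus 30 °C, log2 intensity) with its 95% interval in CEN.PK113-7D (filled) and EC1118 (open) for 33 proteasome subunits (left) and 17 daughter cell separation genes (right), ordered by interaction; a star marks members called for the interaction, and the horizontal scales differ. The 20 starred proteasome subunits differ by 0.31 to 0.51 and the 9 starred separation genes by 0.75 to 1.89.

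In the wider cell wall list, 24 of 59 members were called (40.7%), 23 positive and 1 negative, with a median of 0.38; the 9 separation genes above are among them. EXG2, an exo-glucanase of the cell wall, read 340.5, 370.5 and 372 at 15 °C and 484, 478 and 439.9 at 30 °C in CEN.PK113-7D, and 289, 277 and 291 at 15 °C and 179, 165 and 190.2 at 30 °C in EC1118. The groups were apart in both strains and opposite in direction, with an interaction of 1.06 ± 0.10 (adjusted p = 3.19e-04). CIS3, a structural mannoprotein, had an interaction of 0.78 ± 0.07 (adjusted p = 3.19e-04), with effects of -0.27 ± 0.05 and 0.52 ± 0.05. SLT2, the MAP kinase of cell wall integrity, and RLM1, a transcription factor that it activates, had interactions of 0.93 ± 0.11 and 0.80 ± 0.20 (adjusted p = 0.00100 and 0.0241); they were chosen after their values were seen. The 1 negative member was GAS4, a glucanosyltransferase of spore wall assembly, at -1.24 ± 0.28 (adjusted p = 0.0174). The list had 0 negative calls without both arrays that stood apart, and 0 without dim genes. Among filamentation regulators TEC1 had an interaction of 0.97 ± 0.30 that missed the test (adjusted p = 0.0623), with a call in 7 alternatives, and FLO8 and STE12 were at 0.03 ± 0.10 and 0.12 ± 0.21 (adjusted p = 0.877 and 0.759).

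Nitrogen limited all cultures, and genes under nitrogen catabolite repression, which serve the use of poor nitrogen sources, were called in 17 of 57 members (29.8%), 14 positive and 3 negative. Their median interaction was 0.28, and 0.18 after quantile normalization. In CEN.PK113-7D 41 fell and 2 rose, and in EC1118 31 fell and 8 rose. DIP5, PUT1, PTR2 and CAR1, described above, were among the positive members and BAP2 among the negative. DAL7, a malate synthase of allantoin use, read 1048, 1022 and 1090.1 at 15 °C and 706, 453 and 591 at 30 °C in EC1118, and 864, 795 and 893 at 15 °C and 954, 966 and 992 at 30 °C in CEN.PK113-7D. The warm wine cultures were the lowest, with an interaction of 1.07 ± 0.18 (adjusted p = 0.00524). UGA2, a dehydrogenase of GABA breakdown, moved in opposite directions, -0.49 ± 0.10 in CEN.PK113-7D and 0.43 ± 0.10 in EC1118, with an interaction of 0.93 ± 0.14 (adjusted p = 0.00268). Of the GATA factors of this pathway GAT1, DAL80 and GLN3 had interactions of 0.37 ± 0.12, 0.71 ± 0.29 and 0.02 ± 0.15 that missed the test (adjusted p = 0.0731, 0.142 and 0.948). GAT1 and DAL80 passed it in 3 alternatives each, and GCN4, the activator of amino acid synthesis, was at 0.16 ± 0.08 (adjusted p = 0.236).

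In the phosphate regulon 10 of 28 members were called (35.7%), 8 positive and 2 negative, with a median of 0.25; without dim genes 4 of 19 were called, all positive, with a median of 0.16. PHO84 and PHO89 had the largest positive values among members with no array at the floor. PHO86, which helps Pho84 leave the endoplasmic reticulum, moved in opposite directions, -0.38 ± 0.07 and 0.30 ± 0.07, with an interaction of 0.68 ± 0.10 (adjusted p = 0.00273). PHO5, the secreted acid phosphatase, was at 10 on all 6 arrays of CEN.PK113-7D and read 1118, 684 and 384 at 15 °C and 111, 113 and 93.7 at 30 °C in EC1118; it was chosen after its values were seen. GIT1, the glycerophosphoinositol transporter, went the other way. It read 30.8, 30.9 and 31.5 against 109, 136 and 142 in CEN.PK113-7D and 77.5, 90.8 and 75.6 against 674, 905 and 698 in EC1118. It fell in both strains and more in the wine strain, with an interaction of -1.17 ± 0.18 (adjusted p = 0.00377).

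Genes of ergosterol synthesis, which anaerobic yeast cannot complete without oxygen, were called in 8 of 35 members (22.9%), all positive, with a median of 0.40. In CEN.PK113-7D 17 fell and 3 rose, and in EC1118 6 fell and 10 rose; after either scaling 10 fell and 5 rose in CEN.PK113-7D. The count called was 3 without replicate 1 of EC1118 at 15 °C or replicate 3 at 30 °C, 4 without replicate 2 of CEN.PK113-7D at 15 °C and 5 without replicate 1 or 2 at 30 °C, after quantile normalization or without both arrays that stood apart. The median was 0.26 without replicate 2 of EC1118 at 30 °C and 0.22 without both arrays. ERG20, the farnesyl pyrophosphate synthase, read 1933, 1868 and 2009.5 at 15 °C and 1148, 994 and 1156 at 30 °C in EC1118, and 2093, 1967 and 2209 at 15 °C and 1933, 2284 and 2226 at 30 °C in CEN.PK113-7D. EC1118 cultures at 30 °C alone were low, and the interaction was 0.86 ± 0.12 (adjusted p = 0.00212). ERG27, ERG10 and ERG9, enzymes of sterol demethylation, acetyl unit condensation and squalene formation, had interactions of 0.68 ± 0.13, 0.50 ± 0.10 and 0.46 ± 0.11 (adjusted p = 0.00859, 0.0128 and 0.0216). The call of ERG9 was lost in 6 alternatives, and that of UPC2, the sterol regulator, was not made (interaction 0.14 ± 0.21, adjusted p = 0.718). Among seripauperin and mannoprotein genes of anaerobic growth, 1 of 24 was called (4.17%), below the background, and 11 members lay on shared probe sets. Their median of 0.85 was not stable: it was -0.47 over the 5 members left without multi-copy families, 0.39 without replicate 1 of EC1118 at 15 °C, 0.41 without replicate 3 of CEN.PK113-7D at 15 °C and 0.34 without both arrays that stood apart. Left-out arrays moved the count called between 0 and 5, the highest without replicate 3 of EC1118 at 15 °C. The called member, PAU5, had an interaction of 1.98 ± 0.51 (adjusted p = 0.0305) that was lost in 8 alternatives.

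Genes of NAD synthesis had a positive value in 17 of 17 members and a call in 8 (47.1%), with a median of 0.48. BNA2, the first enzyme of the route from tryptophan, read 610.1, 662 and 617 at 15 °C and 882, 803 and 1083 at 30 °C in CEN.PK113-7D. EC1118 gave 536, 580.3 and 761 at 15 °C and 281, 409 and 366 at 30 °C. The groups were apart and opposite in direction, with an interaction of 1.37 ± 0.24 (adjusted p = 0.00542), although the fall in CEN.PK113-7D missed the test after quantile normalization and without replicate 3 of CEN.PK113-7D at 30 °C. BNA1, a later enzyme of that route, and NPT1, of the salvage route, had interactions of 1.14 ± 0.18 and 0.48 ± 0.08 (adjusted p = 0.00351 and 0.00416). In the tricarboxylic acid and glyoxylate cycles 8 of 25 were called (32%), all positive, with a median of 0.31, which was 0.18 without replicate 3 of CEN.PK113-7D at 30 °C, 0.20 without its replicate 1 at 15 °C and 0.19 with the pseudocount. CIT2, the peroxisomal citrate synthase, had an interaction of 0.75 ± 0.14, IDP2, a cytosolic isocitrate dehydrogenase, of 0.85 ± 0.17, and IDH1, of the mitochondrial enzyme, of 0.55 ± 0.09 (adjusted p = 0.00685, 0.00978 and 0.00426). IDH1, NPT1 and ERG27 moved in opposite directions as deposited and passed in EC1118 alone after either scaling.

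Heat shock proteins and chaperones were called in 12 of 39 members (30.8%), 11 positive and 1 negative, with a median of 0.30. In CEN.PK113-7D 30 fell and 4 rose, and in EC1118 19 fell and 4 rose; after either scaling 16 fell and 7 rose in EC1118. SSA2, a constitutive cytosolic Hsp70, read 2864, 2641 and 2414 at 15 °C and 1515, 1269 and 1412 at 30 °C in EC1118, and 3888, 3746 and 3668 at 15 °C and 3620.5, 3627 and 3784 at 30 °C in CEN.PK113-7D. Wine cultures at 30 °C were again the lowest, with an interaction of 0.88 ± 0.11 (adjusted p = 0.00147). AHA1 and STI1, cochaperones of Hsp90, fell in both strains and more in CEN.PK113-7D, with interactions of 0.73 ± 0.09 and 0.58 ± 0.09 (adjusted p = 0.00151 and 0.00297). CUR1, a sorting factor for misfolded proteins, read 175, 194 and 232 against 321, 429 and 431 in CEN.PK113-7D and 182, 195 and 219 against 169, 177 and 169 in EC1118. Its warm laboratory cultures alone were high, with an interaction of 1.18 ± 0.19 (adjusted p = 0.00399). HSF1, the heat shock factor, had an interaction of 0.04 ± 0.16 (adjusted p = 0.910).

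The general stress response list was near the background, with 9 of 61 members called (14.8%), 7 positive and 2 negative. The median of 0.12 had no stable sign: it was -0.15 without replicate 1 of EC1118 at 30 °C, with 6 members called negative, 0.35 without replicate 2 of that group, and 0.43 without both arrays that stood apart, with 14 called positive. In CEN.PK113-7D 41 fell and 2 rose, and in EC1118 40 fell and 1 rose. TMA10, a ribosome-associated stress protein, read 172, 175 and 217 at 15 °C and 1810.5, 2163 and 2091 at 30 °C in CEN.PK113-7D, and 238, 266 and 172 at 15 °C and 660.4, 775 and 666 at 30 °C in EC1118. It fell in both strains, 10.8-fold and 3.15-fold, with an interaction of 1.78 ± 0.22 (adjusted p = 0.00132). ALD2, an aldehyde dehydrogenase, MRK1, a kinase of the glycogen synthase kinase family, and RGI1, a protein of energy metabolism, had interactions of 1.24 ± 0.15, 1.16 ± 0.09 and 1.09 ± 0.14 (adjusted p = 0.00115, 1.79e-04 and 0.00132). The regulators of this response differed: MSN4 was at -1.12 ± 0.24 (adjusted p = 0.0130), with a 3.05-fold fall in EC1118, and MSN2 at -0.16 ± 0.13 (adjusted p = 0.454). The fall of MSN4 in CEN.PK113-7D, -0.49 ± 0.17, missed the test in 6 alternatives.

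Ribosome biogenesis genes rose in the cold in both strains. Of 145 measured members 120 rose and 2 fell in the laboratory strain, beside 104 and 2 in the wine strain. The interaction was called in 23 (15.9%), near the 13% of all genes when both directions are counted together, and the median was -0.28. The directions were not near the background: 21 of the 145 were called negative and 2 positive. Over all genes 4.37% were called negative and 8.68% positive. The interaction value was negative in 122 of the 145 members. NSR1, a nucleolar protein of pre-rRNA processing, read 1549, 1626 and 1299 at 15 °C and 317, 271 and 325 at 30 °C in CEN.PK113-7D. The EC1118 arrays read 1729, 1644 and 1544 at 15 °C and 727, 646 and 579 at 30 °C. The cold groups overlapped between the strains and the warm groups did not, and the interaction was -0.95 ± 0.16 (adjusted p = 0.00464). DBP7, an RNA helicase of the large subunit, had an interaction of -0.69 ± 0.11 (adjusted p = 0.00443). The 2 positive members were ESF1, above, and SPB4, a further helicase, at 0.99 ± 0.13 (adjusted p = 0.00179), whose fall in CEN.PK113-7D missed the test in 6 alternatives. The count of negative members ran from 11 without replicate 2 of either strain at 15 °C to 38 without replicate 3 of CEN.PK113-7D at 15 °C, and was 12 without replicate 1 of the latter group or replicate 2 of CEN.PK113-7D at 30 °C.

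Purine synthesis genes were called in 8 of 22 members (36.4%), 7 positive and 1 negative, with a median of 0.17. After quantile normalization the median was 0.04 with 3 called positive. The count of positive members was also 3 without replicate 3 of EC1118 at 30 °C, and 4 without replicate 2 of CEN.PK113-7D at either temperature or replicate 1 of EC1118 at 15 °C. MTD1, a folate enzyme that feeds purine synthesis, read 1111, 1155 and 1052 at 15 °C and 765, 764 and 764 at 30 °C in EC1118, and 1166, 1104 and 1154 at 15 °C and 1085, 1221 and 1241 at 30 °C in CEN.PK113-7D. The warm wine cultures alone were low, with an interaction of 0.58 ± 0.09 (adjusted p = 0.00351). ADE13 and ADE4, enzymes of the pathway, had interactions of 0.46 ± 0.10 and 0.47 ± 0.10 (adjusted p = 0.0128 and 0.0160) that were lost after quantile normalization. IMD2, an inosine monophosphate dehydrogenase on a shared probe set, rose in both strains and more in CEN.PK113-7D, with an interaction of -1.33 ± 0.22 (adjusted p = 0.00464).

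The mating-type lists were small and opposed each other. Of 9 a-specific genes 3 were called (33.3%), all positive: MFA2 and BAR1, above, and STE6, the a-factor exporter, at 1.23 ± 0.30 (adjusted p = 0.0257), whose call was lost in 6 alternatives. STE6 was dim in EC1118, from 27.9 to 48.2 over its 6 arrays. Of 5 alpha-specific genes 3 were called (60%), all negative, namely MF(ALPHA)1, MF(ALPHA)2 and STE3. Without dim genes 2 alpha-specific genes were tested and 1 was called, and 7 a-specific genes were tested and 2 were called. SAG1, the alpha-agglutinin, was at -1.15 ± 0.59 and missed the test (adjusted p = 0.232). In whole cultures the share of cells of a mating type was not measured.

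Among gene families with copies near chromosome ends, 4 of 11 maltose and sucrose genes were called (36.4%), all positive, with a median of 0.35. MAL31, a maltose permease, had an interaction of 0.90 ± 0.18, and MAL32, a maltase on a shared probe set, of 1.84 ± 0.34 (adjusted p = 0.0112 and 0.00667). MAL32 read 447, 489 and 784 at 15 °C and 1972, 1553 and 1692 at 30 °C in CEN.PK113-7D, but between 61.0 and 107 in EC1118. Of 8 COS genes 2 were called (25%), COS12 with a negative value and COS9, of the same family, at 0.77 ± 0.16 (adjusted p = 0.0125). Of 6 aryl-alcohol dehydrogenase genes 3 were called (50%), and as deposited each of the 3 moved in opposite directions, beside 1 after either scaling. AAD4, on a shared probe set, and AAD14 had interactions of 0.57 ± 0.12 and 0.35 ± 0.08 (adjusted p = 0.0125 and 0.0185), and each call was lost in 2 alternatives; the opposite directions did not hold in 8 alternatives for AAD4 and in 15 for AAD14. AAD3, also on a shared probe set, read 23.8, 22.1 and 36.1 at 15 °C and 12.1, 10 and 10 at 30 °C in CEN.PK113-7D and 339.7, 273 and 307 at 15 °C and 818, 448 and 606 at 30 °C in EC1118; it was chosen after its values were seen. The other 32 lists examined had between 0% and 22.9% of members called and a median within 0.3 of 0.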

How the data were processed

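RNA of 12 chemostat cultures was measured, 1 Affymetrix array each. The authors deposited a linear intensity per probe set and array. Neither the summary method nor the normalization behind these values is given in the sources used here. An intensity of 10, the lowest deposited, was treated as a floor, and values were analysed as deposited after log2. The platform annotation named 1 gene for 5498 of 5900 probe sets, and 402 were unnamed. Where a gene had several probe sets (47 genes), the brightest on average stood for it, and 5449 genes were tested. The RefSeq gene table updated 12 symbols.

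The model was fitted with limma 3.58.1 under R 4.3.3 (lmFit, then eBayes, with a coefficient for each group and no block), with 8 residual and 2.22 prior degrees of freedom. The interaction, both temperature effects and both strain differences were contrasts of that fit, each adjusted by Benjamini-Hochberg over all genes with a threshold of 0.05. Folds are ratios of geometric means. The script was run on simulated data with known changes and independent noise on each array. Those data hold no deviations shared between arrays, so they cannot show the error rate where arrays share them.

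The named genes were those with the largest effects in each class without an array at the floor: 8 per direction of the opposite genes (by the smaller of the 2 temperature effects), 5 per direction of the genes called in 1 strain, and 3 per strain of the unequal ones. The 3 largest with an array at the floor are given by level. Each described list added up to 4 members, those lowest in adjusted p. In addition 14 preset genes were included, namely regulators and INO1, which is an enzyme. A list was described where at least 25% of its members were called or its median was at least 0.3 from 0, and 6 lists always. Members and lists were chosen with earlier results of these data known. The alternatives were both scalings, a filter on dim genes, a pseudocount of 50, trend and robust options, averaged probe sets, array weights, a replicate block, omission of multi-copy families, and each array left out in turn. Leaving out both arrays that stood apart was chosen after seeing the data. Promoter sequences were not used here.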

Additional observations from a re-analysis of the deposited data

Results flagged for a closer look

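The test of the difference between the temperature effects of CEN.PK113-7D and EC1118 passed in 711 genes, and in 96 of them both effects passed with opposite signs. The 16 opposite genes named in the text are listed here because that test passed for each. The interactions in log2 intensity were positive for FLO11 (3.73), PHO84 (3.61), YAR068W (3.52), BAG7 (1.99), YDR261C-D (1.87), ESF1 (1.71), BAR1 (1.63) and YOR385W (1.58). They were negative for MF(ALPHA)1 (-4.20), STE3 (-2.08), DIN7 (-1.29), MCH2 (-1.25), MCH4 (-1.13), COA6 (-1.03), CLB1 (-0.98) and VBA2 (-0.94). The outlying-sample criterion used here is not applied to groups of 3 arrays.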

How the results depend on the processing

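The main limits are the number of arrays, the unknown normalization and the floor of 10, which bounds what dim genes can show. Of the 92 named genes called, 82 stayed called under all 22 alternatives that tested them, 10 lost the call under at least 1 and 0 reversed. Most named genes were picked for large effects or low adjusted p in the same fit, so this says little about the other called genes. Of all 711 called genes, the fits with an array left out kept from 462 (without EC1118 at 15 °C, replicate 1) to 603 (without CEN.PK113-7D at 15 °C, replicate 3). The division by direction was less stable: 25 of the 96 opposite genes, and 8 of the 16 named ones, were opposite under every alternative that tested them. The count of genes reaching 2-fold fell from 148 to 66 without dim genes, which drops 1363 genes, and to 79 with a pseudocount of 50. With array weights estimated from the data, 1268 genes were called, with 154 opposite, 369 in CEN.PK113-7D only, 290 in EC1118 only and 450 in the same direction. With each array left out in turn the interaction count ran from 468 (without EC1118 at 15 °C, replicate 1) to 801 (without CEN.PK113-7D at 15 °C, replicate 3), and that at 2-fold from 133 to 167. Opposite genes ran from 63 to 96, CEN.PK113-7D only from 157 to 265, EC1118 only from 106 to 191 and same direction from 112 to 249. Temperature calls ran from 2739 to 3247 in CEN.PK113-7D and from 2541 to 3071 in EC1118, and strain calls from 1358 to 1805 (15 °C) and 1834 to 2436 (30 °C). Without both arrays that stood apart 743 were called, 80 of them opposite. Medians of small lists moved too: without both arrays those of the a-specific and the maltose and sucrose genes were 0.60 and 0.53, beside 0.39 and 0.35, that of the COS genes was 0.21 after quantile normalization, beside 0.37, and that of the alpha-specific genes was -1.02 with the pseudocount, beside -2.08. Omitting multi-copy families left 2 maltose and sucrose genes, 1 aryl-alcohol dehydrogenase gene and 0 COS genes, with none called. Array weights raised the positive calls among heat shock genes from 11 to 19 and the negative ones among ribosome biogenesis genes from 21 to 46.

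Correlations of same-numbered deviations from the group means ran from -0.24 to 0.48. They exceeded 0.1 in all 3 pairs for 1 of 6 pairs of groups, both strains at 15 °C (0.48, 0.32 and 0.39). By that criterion the numbers pair the samples there alone. Replicate 1 arrays nevertheless correlated in all 6 pairs of groups, from 0.34 to 0.48, so they shared deviations across the 4 groups the interaction compares. For replicates 2 and 3 the values ran from -0.24 to 0.39. With the replicate block the strain difference at 15 °C passed in 1910 genes, beside 1805. With the replicate number as a block 784 genes were called, 661 of them among the 711, and 107 were opposite. For each array the correlations were averaged over the arrays of each number in the other groups. This mean was highest for the array's own number in 8 of 12 arrays. The cause of these differences was not tested. The planned description of promoter motifs was not run.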
